A study of Homo sapiens with 5 samples.

Results

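The 3′ stretch of human 28S rRNA beyond position 3944 carries the catalytic centre of the large ribosomal subunit, and the deposited table listed 20 ribose 2′-O-methylation positions in it. They were taken by rRNA name and position number alone, as all rows of 28S from 4042 to the last at 4637, and make up 20 of the 110 positions in the table. The nearest listed position outside the stretch was 3944, at 0.798 in Mock and 0.797 in SCR, and the nearest inside was 4042, at 0.717 and 0.701. RiboMethSeq was run on total RNA of PaTu cells, a name used for human pancreatic cancer cell lines, in 5 libraries: Mock and SCR, the ADAR1 libraries #1 and #2, and the ADAR2 library #1. ADAR1 and ADAR2 are the enzymes that deaminate adenosine to inosine in double-stranded RNA. How either gene was changed, whether #1 and #2 are separate reagents or cultures, and any treatment, time or allele are not stated in the labels. Neither the level of the ADAR genes nor the identity of the cells can be checked in a table of rRNA methylation. Mock and SCR together formed the reference (n = 2), beside 2 ADAR1 libraries and 1 ADAR2 library. No label states that the libraries were separate cultures, so the p-values reflect library-to-library spread that could be purely technical.

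Methyl groups on the ribose are placed on rRNA mainly by fibrillarin, the methyltransferase of box C/D small nucleolar ribonucleoproteins, in which a small nucleolar RNA (snoRNA) pairs with the rRNA and so selects the nucleotide. In the large subunit they gather in the functional core: the P loop and A loop hold the ends of the transfer RNAs, the peptidyl transferase centre joins amino acids, and the sarcin-ricin loop, the target of ricin, contacts the translation factors. A level close to 1 is usually read as methylation of nearly all molecules of an rRNA at that nucleotide. A lower level is read as methylated and unmethylated molecules coexisting. The score formula is not given in the sources used here, so whether the levels equal shares of molecules was not tested.

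Guide sequences are shown for the 4 positions where ADAR1 #1 and ADAR1 #2 lay at least 0.05 apart and for 4392 in the peptidyl transferase centre. The base selected for methylation can be read from them once the guiding box is taken as known. No guide sequence is shown for 4227, 4523 or 4590. A box C/D snoRNA methylates the nucleotide that pairs with its 5th base upstream of a box D or D′, whose consensus is CTGA (T standing for U). In the 5 snoRNA sequences that follow, taken from GENCODE release 29 on GRCh38, capitals mark the 11 bases before such a box and the 4 bases of the box. The box marked in each was chosen beforehand. SNORD41, SNORD1A, SNORD91A and SNORD121A hold CTGA 2, 3, 3 and 2 times, and SNORD35A holds a CTGA besides the box marked. Which position each snoRNA guides is background knowledge, as are the nucleotides, guides and loops named here, since the table lists none of them. All of these assume that the table numbers 28S as the commonly used RefSeq sequence does, which was not tested because the rRNA reference is not given in the sources used here.
SNORD41 (position 4306): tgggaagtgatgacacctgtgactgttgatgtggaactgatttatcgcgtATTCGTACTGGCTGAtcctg
SNORD1A (position 4392): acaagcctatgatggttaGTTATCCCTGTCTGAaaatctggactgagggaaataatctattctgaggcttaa
SNORD35A (position 4536): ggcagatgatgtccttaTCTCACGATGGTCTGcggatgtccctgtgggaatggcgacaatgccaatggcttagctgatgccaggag
SNORD91A (position 4618): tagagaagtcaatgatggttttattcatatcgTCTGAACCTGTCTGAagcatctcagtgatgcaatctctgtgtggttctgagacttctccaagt
SNORD121A (position 4637): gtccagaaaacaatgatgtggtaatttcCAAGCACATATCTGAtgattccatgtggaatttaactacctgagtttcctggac
The base opposite the 5th base was U for SNORD41, G for SNORD1A, C for SNORD35A, and G for both SNORD91A and SNORD121A. The box used for SNORD35A was the variant TCTG, a motif that can overlap CTGA by its last letters but did not do so there. A box placed elsewhere can select a different base, so each base read here rests on the box chosen beforehand. Both motifs were searched on the RNA strand only. CTGA was present in 98.3% and TCTG in 70.1% of the 288 SNORD sequences of that release, so their presence is a description and no evidence of guiding. Each of the 5 genes lies inside a longer gene on the same strand: SNORD41 (chr19:12706449-12706518, minus strand) in TNPO2, SNORD1A (chr17:76561634-76561705, plus strand) in SNHG16, SNORD35A (chr19:49491175-49491260, plus strand) in RPL13A, SNORD91A (chr17:2330276-2330370, minus strand) in TSR1 and SNORD121A (chr9:33952769-33952850, minus strand) in UBAP2. SNORD41, SNORD91A and SNORD121A overlapped no annotated exon of the host gene, whereas SNORD1A and SNORD35A overlapped an exon of at least 1 host transcript. The rRNA itself comes from repeated ribosomal DNA, of which RefSeq annotates 5 copies of the 28S gene with lengths of 5054 to 5077 bases.

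Levels in single libraries ran from 0.509 at 4618 to 0.964 at 4054. Averaged over the 5 libraries, 6 of the 20 positions were at 0.9 or higher, compared with 43.6% of all 110 positions, and 3 were below 0.8, compared with 23.6%. Position 4618 had the lowest mean level, 0.564, followed by 4637 at 0.684, 4042 at 0.723 and 4498 at 0.801. At the other end stood 4523 (0.944), 4196 (0.954) and 4054 (0.962). The order was clear at the bottom, where 4618 (highest library 0.614) did not reach 4637 (lowest library 0.652). It was not resolved in the middle. Positions 4456 and 4620 both averaged 0.857 and overlapped in range. So did 4498 (0.787 to 0.834) and 4590 (0.748 to 0.852), and 4306 (0.735 to 0.907) covered the range of several neighbours in the order.

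**Figure D1:**
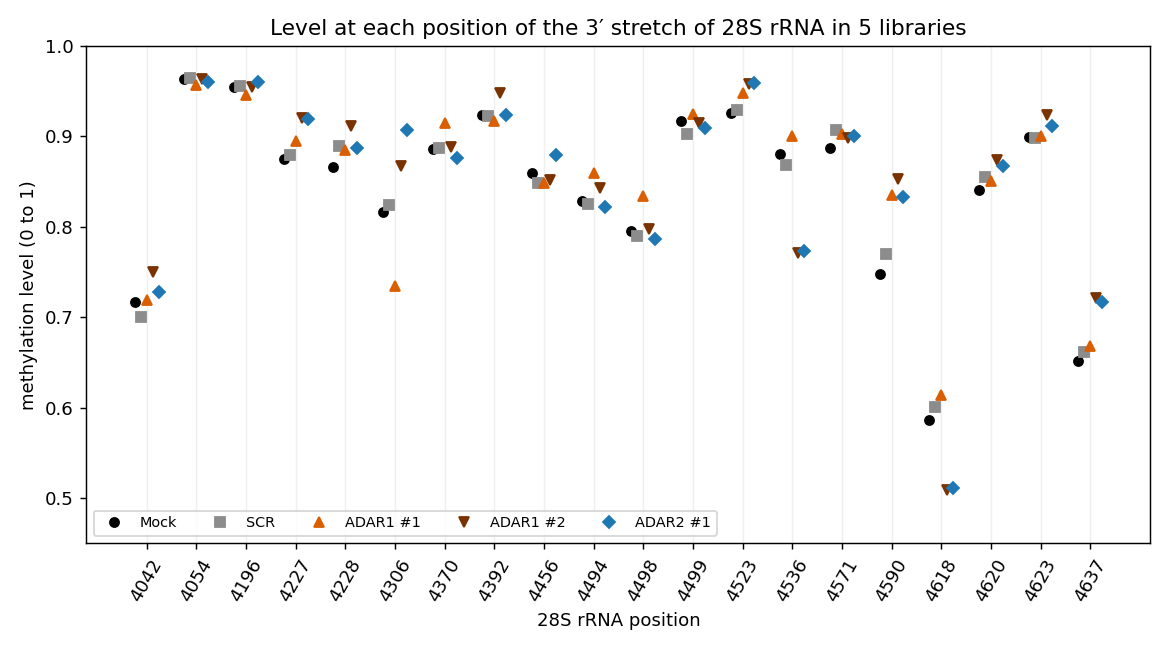
Methylation level (vertical axis, fraction from 0 to 1, the axis not starting at 0) at each of the 20 listed 28S positions from 4042 to 4637 (horizontal axis, not to scale), with 1 symbol per library. The 5 symbols nearly coincide at 4054 and 4196 and spread widely at 4306, 4536, 4590 and 4618.

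The reference libraries were close to each other throughout the stretch. Mock and SCR differed most at position 4228, by 0.0239, and at 0 of the 20 positions by 0.05 or more (0.909% of all positions did). The root mean square difference between them was 0.0119. It was 0.0525 between the ADAR1 libraries, which differed by at least 0.05 at 4 of the 20 positions (17.3% of all positions). These were 4306, 4536, 4618 and 4637. By contrast, ADAR1 #2 and ADAR2 #1 lay 0.0166 apart and differed by at least 0.05 at 0 of the 20 positions, against 6.36% of all positions. Over the 90 positions outside the stretch the same root mean square differences were 0.0162, 0.0609 and 0.0284. The order of these 3 pairs was therefore the same outside the stretch, and no test was made of it.

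**Figure D2:**
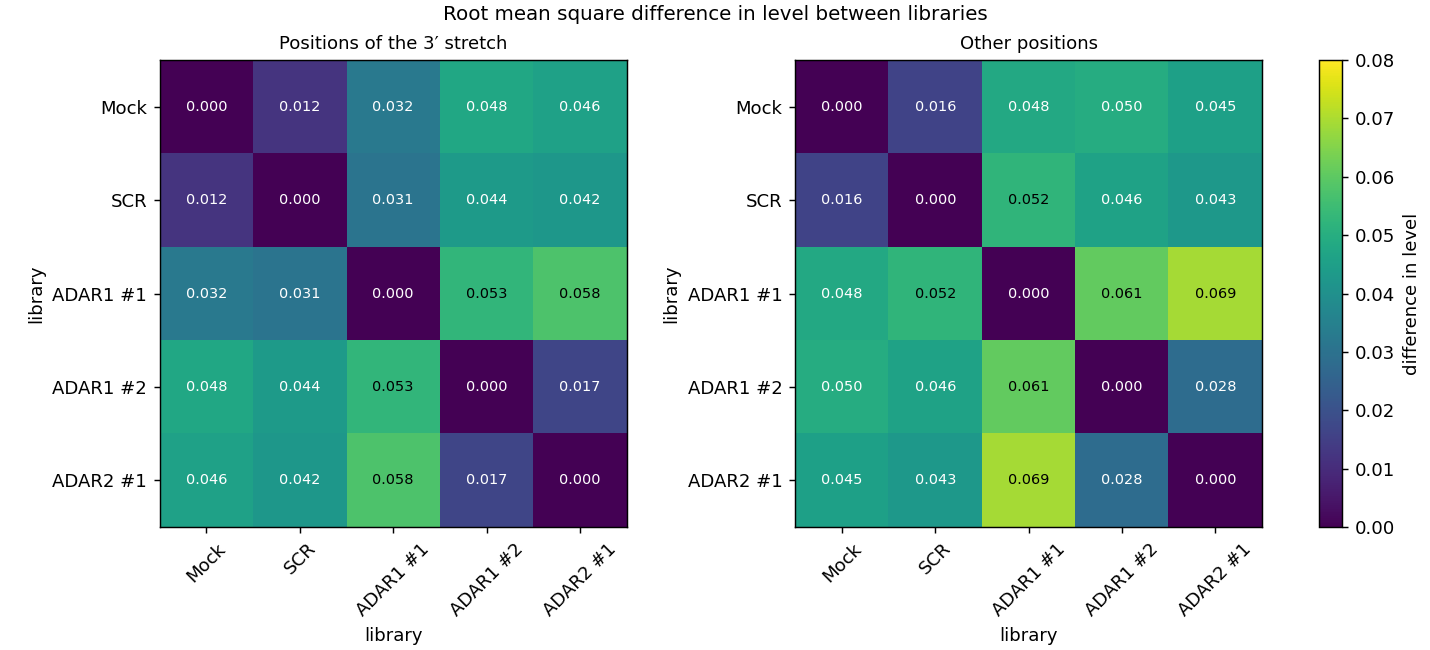
Root mean square difference in methylation level between each pair of the 5 libraries, over the 20 positions from 4042 to 4637 (left) and over the 90 other positions (right), on 1 colour scale. ADAR1 #2 and ADAR2 #1 differ by 0.0166 in the left panel, against 0.0525 for the pair of ADAR1 libraries and 0.0119 for Mock and SCR.

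Position 4590, an adenosine guided by SNORD119 that lies between the A loop and the sarcin-ricin loop, lay above both reference libraries in all 3 ADAR libraries. Its level was 0.748 (Mock) and 0.770 (SCR), 0.836 (ADAR1 #1) and 0.852 (ADAR1 #2), and 0.832 (ADAR2 #1). The lowest ADAR library was thus above the higher reference library, and the ADAR1 libraries, at 0.844 ± 0.012 (SD, n = 2), nearly coincided. On average ADAR1 exceeded the reference by 0.0851 (95% interval 0.0410 to 0.129), but after adjustment over the 110 positions the test did not pass (limma, adjusted p = 0.124). For ADAR2 #1 the difference was 0.0736 (0.0195 to 0.128; limma, adjusted p = 0.219).

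Position 4536, a cytidine guided by SNORD35A and its paralogue SNORD35B just 3′ of the A loop, divided the libraries differently. It was at 0.881 (Mock) and 0.869 (SCR), 0.9002 (ADAR1 #1) and 0.771 (ADAR1 #2), and 0.773 (ADAR2 #1). ADAR1 #2 and ADAR2 #1 were low and nearly equal, whereas ADAR1 #1 was the highest of the 5. The difference of ADAR2 #1 from the reference was -0.102 (95% interval -0.230 to 0.0266; limma, adjusted p = 0.458). Between ADAR1 and ADAR2 #1 the difference was 0.0626 (-0.0656 to 0.191; limma, adjusted p = 0.774). That value rested on ADAR1 #1: without ADAR1 #1 it was -0.0019, and without ADAR1 #2 it was 0.127.

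Position 4618, a guanosine guided by SNORD91A and SNORD91B just 3′ of the sarcin-ricin loop, showed the same division. Its level was 0.587 (Mock) and 0.601 (SCR), 0.614 (ADAR1 #1) and 0.509 (ADAR1 #2), and 0.511 (ADAR2 #1). Again ADAR1 #2 and ADAR2 #1 lay below both reference libraries and ADAR1 #1 slightly above them. ADAR2 #1 differed from the reference by -0.0824 (95% interval -0.221 to 0.0564; limma, adjusted p = 0.515).

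The listed positions next to 4618 did not share its low values. Position 4620 was at 0.840 (Mock) and 0.855 (SCR), 0.851 (ADAR1 #1) and 0.874 (ADAR1 #2), and 0.867 (ADAR2 #1). Position 4623, guided by SNORD78, was at 0.899, 0.898, 0.9002, 0.924 and 0.911 in the same order. At both, ADAR1 #2 and ADAR2 #1 were the highest libraries, the opposite of their place at 4618. A RiboMethSeq score is usually taken against the neighbouring nucleotides, so scores this close in sequence may not be independent, and whether that bears on these values was not tested. Of the 20 positions, 8 had another listed position within 6 nucleotides (38.2% of all positions).

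Position 4637, a guanosine guided by SNORD121A and SNORD121B and the last listed position of 28S, averaged 0.684 over the 5 libraries. It was at 0.652 (Mock) and 0.662 (SCR), 0.669 (ADAR1 #1) and 0.721 (ADAR1 #2), and 0.717 (ADAR2 #1). All 3 ADAR libraries were above the reference, ADAR1 #1 by a small margin and the others by more. The difference of ADAR2 #1 was 0.05996 (95% interval -0.0281 to 0.148; limma, adjusted p = 0.515).

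Position 4306, a uridine guided by SNORD41, had the widest range of the 20 positions. Its level was 0.816 (Mock) and 0.824 (SCR), 0.735 (ADAR1 #1) and 0.867 (ADAR1 #2), and 0.907 (ADAR2 #1). The ADAR1 libraries lay on opposite sides of the reference, at a mean of 0.801 ± 0.093 (SD, n = 2), which is next to the reference mean of 0.8201 and describes neither library. ADAR2 #1 exceeded the reference by 0.0866 (95% interval -0.0446 to 0.218; limma, adjusted p = 0.515). ADAR1 was lower than ADAR2 #1 by -0.106 (-0.237 to 0.0255; limma, adjusted p = 0.724), a difference that was -0.0397 without ADAR1 #1 and -0.172 without ADAR1 #2.

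**Figure D3:**
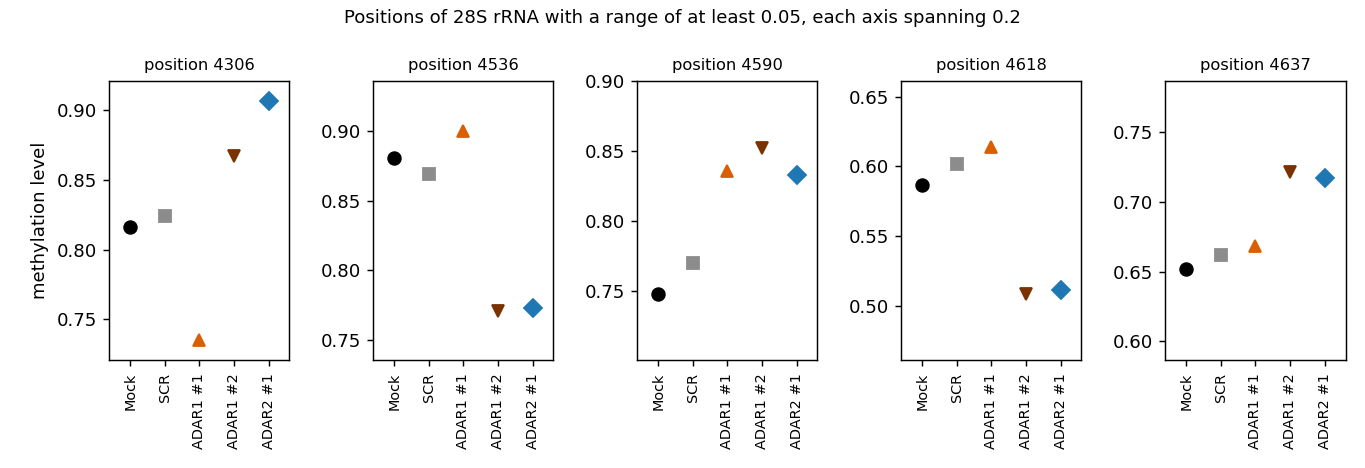
Methylation level (vertical axes, each spanning 0.2) at the 5 positions of the stretch whose range over the libraries reached 0.05 (4306, 4536, 4590, 4618 and 4637), with 1 symbol for each of the 5 libraries. At 4590 the 3 ADAR libraries lie above Mock and SCR, at 4536 and 4618 ADAR1 #2 and ADAR2 #1 lie below the other 3 libraries, and at 4306 the 2 ADAR1 libraries lie on opposite sides of the reference.

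Position 4523, an adenosine guided by SNORD29 with a mean level of 0.944, varied little but in 1 direction. It was at 0.926 (Mock) and 0.929 (SCR), 0.948 (ADAR1 #1) and 0.958 (ADAR1 #2), and 0.959 (ADAR2 #1). Every ADAR library was above both reference libraries. The difference was 0.0254 for ADAR1 (95% interval 0.0117 to 0.0391; limma, adjusted p = 0.124) and 0.0313 for ADAR2 #1 (0.0145 to 0.0481; limma, adjusted p = 0.213).

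The adjacent positions 4227 and 4228 lie 3′ of the P loop and are linked to the SNORD58 family. Position 4227 was at 0.875 (Mock) and 0.879 (SCR), 0.895 (ADAR1 #1) and 0.9204 (ADAR1 #2), and 0.919 (ADAR2 #1). Position 4228 was at 0.866, 0.8897, 0.884, 0.911 and 0.887. All 3 ADAR libraries were above both reference libraries at 4227, with ADAR2 #1 between the ADAR1 libraries, whereas at 4228 ADAR1 #1 and ADAR2 #1 lay between Mock and SCR. At 4227 the difference was 0.0307 for ADAR1 (95% interval 0.000411 to 0.0610; limma, adjusted p = 0.251) and 0.0420 for ADAR2 #1 (0.0049 to 0.0791; limma, adjusted p = 0.3301).

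The P loop nucleotide at 4196, guided by SNORD31, was at 0.954 (Mock) and 0.956 (SCR), 0.946 (ADAR1 #1) and 0.955 (ADAR1 #2), and 0.9596 (ADAR2 #1), a range of 0.0140 over the 5 libraries. Position 4392, guided by SNORD1A and its paralogues in the peptidyl transferase centre, was at 0.924, 0.922, 0.917, 0.948 and 0.924, with ADAR1 #2 alone above the rest.

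The A loop has 2 adjacent methylated nucleotides, 4498 and 4499. In yeast the nucleotide matching 4499 is methylated by the stand-alone enzyme Spb1 rather than through a snoRNA. Position 4498 was at 0.795 (Mock) and 0.790 (SCR), 0.834 (ADAR1 #1) and 0.797 (ADAR1 #2), and 0.787 (ADAR2 #1). Position 4499 was at 0.917, 0.902, 0.925, 0.915 and 0.909. ADAR1 #1 was the highest library at both, and at 4499 the other ADAR libraries lay between Mock and SCR. Position 4494, guided by SNORD69 and a few bases upstream, was at 0.829, 0.826, 0.8596, 0.843 and 0.821. There too ADAR1 #1 was the highest.

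Of the remaining positions, 4370 (SNORD60) was at 0.886 (Mock) and 0.887 (SCR), 0.915 (ADAR1 #1) and 0.888 (ADAR1 #2), and 0.876 (ADAR2 #1). Position 4456 (SNORD49A and SNORD49B) was at 0.859, 0.848, 0.848, 0.852 and 0.8798. At 4370 ADAR1 #1 stood above the rest and at 4456 ADAR2 #1 did. Position 4571 (SNORD63) was at 0.887, 0.907, 0.903, 0.898 and 0.901, all 3 ADAR libraries falling between Mock and SCR. Position 4042 (SNORD102) was at 0.717, 0.701, 0.719, 0.750 and 0.728. Position 4054 (SNORD75) was at 0.964, 0.964, 0.957, 0.963 and 0.9603, the narrowest range of the 20. All 3 ADAR libraries were above the reference at 4042 and below it at 4054, by small amounts.

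No position of the stretch passed the test in any comparison. The fit was made on all 110 positions, with Benjamini-Hochberg adjustment over them and a threshold of 0.05. For ADAR1 minus reference 0 of 20 passed (0% of all positions by limma), and 3 of 20 had an unadjusted p below 0.05, all higher in ADAR1 (19.1% of all positions, in either direction). They were 4227, 4523 and 4590. For ADAR2 minus reference 0 of 20 passed (0% of all positions by limma) and 3 of 20 had an unadjusted p below 0.05 (12.7% of all positions), again higher and at 4227, 4523 and 4590. Both comparisons use Mock and SCR, so the second is no independent repeat of the first. For ADAR1 minus ADAR2 0 of 20 passed (0% of all positions by limma), and 0 of 20 had an unadjusted p below 0.05 (8.18% of all positions). Counted in either direction, the shares of the 3 ADAR1 and ADAR2 positions are close to those over the table. Counting only higher positions with an unadjusted p below 0.05, ADAR1 had 3 of 20 against 15.6% of the 90 other positions. For ADAR2 it was 3 of 20 against 5.56% of the 90, which is not close. No test was made of these shares. At the median position the 95% interval reached 0.0346 to either side of the ADAR1 difference and 0.0424 for ADAR2 #1. These intervals are not adjusted, so smaller differences were mostly not detectable with these libraries and larger ones could fail too. At 4590 the ADAR1 difference of 0.0851 did not pass (limma, adjusted p = 0.124).

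The count depended on the ADAR1 libraries. With either ADAR1 library left out, some positions passed in every comparison. In those fits the spread comes from Mock and SCR alone and each single library is assumed to vary as they do. Such calls therefore compare libraries rather than groups, and their share over all positions was not taken.

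**Figure D4:**
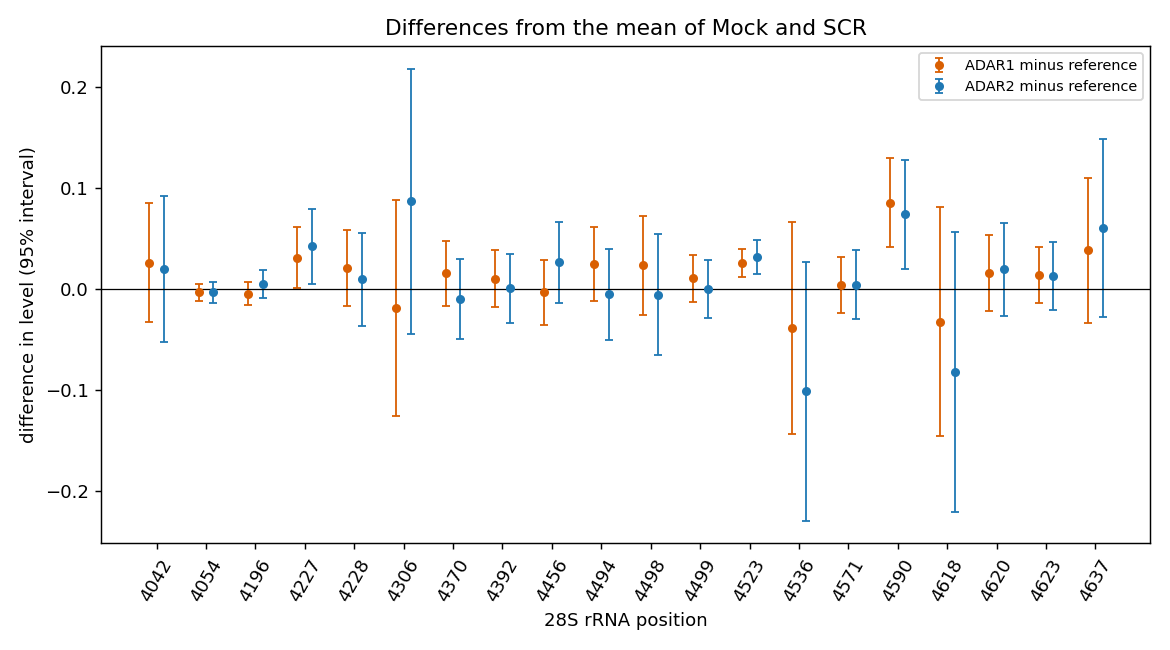
Difference in methylation level from the mean of Mock and SCR (vertical axis) at each of the 20 positions, for the mean of the 2 ADAR1 libraries and for ADAR2 #1, with 95% intervals from limma. At 4227, 4523 and 4590 both intervals lie above 0, and 0 of the 20 positions passed after adjustment in either comparison.

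By size without a model, the pair of ADAR1 libraries was above, or below, both reference libraries with a mean difference of at least 0.05 at 1 of 20 positions (10.9% of all positions), which was 4590. Without ADAR1 #1 the rule was met at 4 positions and without ADAR1 #2 at 2, counts that were not made over all positions. ADAR2 #1 met the corresponding rule at 5 of 20 positions (17.3% of all positions), above the reference at 4306, 4590 and 4637 and below it at 4536 and 4618. At any size, the ADAR1 and reference values did not overlap at 10 of 20 positions (50.0% of all positions), 9 higher and 1 lower. ADAR2 #1 was outside the reference values at 16 of 20 (82.7% of all positions), 10 higher and 6 lower. Counted in either direction, the shares at any size are close to those of the whole table. By direction, ADAR1 was higher at 9 of 20 against 33.3% of the 90 other positions, and lower at 1 of 20 against 16.7%. ADAR2 #1 was higher at 10 of 20 against 52.2% of the 90, and lower at 6 of 20 against 31.1%.

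The mean level over the 20 positions was 0.841 (Mock) and 0.844 (SCR), 0.853 (ADAR1 #1) and 0.856 (ADAR1 #2), and 0.851 (ADAR2 #1). All 3 ADAR libraries were above both reference libraries, with ADAR1 at 0.854 ± 0.0022 (SD, n = 2), 0.0118 above the reference mean. That SD is small because opposite differences at single positions offset each other in such averages. ADAR1 #2 was above ADAR1 #1 at 4306 (0.867 against 0.735) and below it at 4536 (0.771 against 0.9002). Position by position, the ADAR1 libraries lay 0.0525 apart in root mean square. Over the 90 other positions the means were 0.819, 0.824, 0.821, 0.839 and 0.831, where ADAR1 #1 lay between Mock and SCR. The mean of the ADAR1 libraries was nevertheless 0.0087 above the reference there, against 0.0118 in the stretch. For ADAR2 #1 the difference was 0.0092 there and 0.0089 in the stretch, so a higher mean was not particular to the stretch. The median ADAR1 difference was 0.0143 over the 20 positions and 0.0078 over all 110, and for ADAR2 #1 it was 0.0067 and 0.0053. With 2 libraries against 2 the smallest p of an exact permutation test is 0.33, and such a test was not made. Along the rRNA, the 6 positions from 4571 to 4637 averaged 0.769 (Mock) and 0.782 (SCR), 0.795 (ADAR1 #1) and 0.796 (ADAR1 #2), and 0.790 (ADAR2 #1). The 8 positions from 4370 to 4536 averaged 0.877, 0.872, 0.893, 0.872 and 0.866, with ADAR1 #1 highest and ADAR2 #1 lowest. For the 4 positions from 4196 to 4306 the averages were 0.878, 0.887, 0.865, 0.913 and 0.918, and there ADAR1 #1 was the lowest. Both lowest places rested on single positions, 4536 (0.773 in ADAR2 #1) and 4306 (0.735 in ADAR1 #1). By the median over the 8 positions ADAR1 #2 was lowest, at 0.8699, and ADAR2 #1 was at 0.878. By the median over the 4 positions Mock was lowest, at 0.8705, and ADAR1 #1 was at 0.8898. Positions 4042 and 4054 averaged 0.8401, 0.833, 0.838, 0.857 and 0.844.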

How the data were processed

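RiboMethSeq counts fragment ends after alkaline hydrolysis, and a 2′-O-methyl group protects the bond that follows it. The authors deposited 1 table of methylation levels, each a fraction between 0 and 1, for 110 rRNA positions in 5 libraries, and gave no read counts, so sequencing depth is unknown. The submitters' processing notes name Bowtie2 2.3.5.1, SAMtools 1.15.1, Trimmomatic 0.39 and FastQC 0.11.9; for the rRNA reference and the score formula the sources used here say nothing.

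Levels were used as deposited. A model of all 110 positions with 3 groups (reference, ADAR1, ADAR2) and a variance trend on the mean level was fitted with limma 3.58.1 (R 4.3.3), with 2 residual and 3.41 prior degrees of freedom. For ADAR2, with 1 library, the spread is that of the other groups. Two-sided p-values were adjusted by Benjamini-Hochberg. The fit was tested on simulated levels in which every library had the same spread, the median SD of Mock and SCR. The ADAR1 libraries lay further apart than that pair, so the simulation does not show how the fit performs at their spread. Full statistics are given for positions with an unadjusted p below 0.05 or a difference of at least 0.05. The members, windows and rules were chosen with earlier results of these data known. The alternatives were no variance trend, a robust prior, the logit of the level, a minimum mean level of 0.5, median-centred libraries, an adjusted p of 0.1, size limits of 0.02 and 0.1, other summaries of the stretch, and leaving out 1 library at a time. No batch is named in the labels. The rRNA sequence was not used here. Figures used matplotlib 3.10.9.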

Additional observations from a re-analysis of the deposited data

Results flagged for a closer look

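At 3 positions of the stretch both ADAR1 libraries lay on one side of the reference values and ADAR2 #1 on the other. The same count was not made over all listed positions, so whether it is particular to the stretch was not tested. ADAR1 was above the reference and ADAR2 #1 below it at 28S positions 4370, 4494 and 4498. The ADAR1 mean exceeded ADAR2 #1 by 0.0252 at 4370, by 0.0300 at 4494 and by 0.0290 at 4498. The direct limma comparison did not pass at any of them, with adjusted p of 0.724 at 4370, 0.724 at 4494 and 0.774 at 4498. At 4370 ADAR1 #2 exceeded the reference mean by only 0.0019, and at 4498 by 0.0047.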

How the results depend on the processing

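The count of 0 positions past the threshold did not change in any of the 3 comparisons with no variance trend, a robust prior, the logit scale, a minimum mean level of 0.5, median-centred libraries or an adjusted p of 0.1. With 1 library left out it ranged from 0 to 11 for ADAR1, 0 to 7 for ADAR2 and 0 to 9 for ADAR1 minus ADAR2, the calls arising when an ADAR1 library was dropped, which leaves only Mock and SCR to estimate the spread. The size rule gave 7 positions for ADAR1 and 8 for ADAR2 at a limit of 0.02, and 0 and 1 at a limit of 0.1. Leaving out libraries gave 1 to 4 for ADAR1. The ADAR1 libraries differed by at least 0.02 at 12 positions. These counts by size were made over the stretch only, without a share over all positions. The same holds for the counts past the threshold with 1 library left out. Whether those calls are particular to the stretch was therefore not tested. The mean of the stretch in ADAR1 exceeded the reference by 0.0079 with median-centred libraries and by 0.0142 without position 4618. For ADAR2 it was 0.0089 as reported, 0.0112 as a median over positions and 0.0138 without position 4618. Of 12 named differences under 108 alternatives, 107 kept their direction. The exception was 28S position 4536 for ADAR1 minus ADAR2, which ranged from -0.0019 to 0.127 when a library was left out. The intervals were less stable than the directions. With no variance trend the intervals at 4227 included 0, at -0.0037 to 0.0651 for ADAR1 and -0.00015 to 0.0841 for ADAR2 #1. At 4523 and 4590 the intervals of both comparisons stayed above 0 in that setting. Many of the alternatives could not change a direction. No variance trend, a robust prior and the minimum mean level leave each difference as it was. So does leaving out a library that the comparison does not use. No paired analysis was possible because no label ties Mock or SCR to #1 or #2, and ADAR2 has a single library. Counting error could not be given without read counts.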
